A study of Saccharomyces cerevisiae with 21 samples.

Results

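Budding yeast keeps a few proteins as pairs of genes, with an isoform used when oxygen and heme are plentiful and another used when they are scarce. The genes described here are 4 such sets together with *ROX1*, which encodes the repressor of the hypoxic isoforms. They were chosen by name: *HYP2* and *ANB1* (translation factor eIF5A), *COX5A* and *COX5B* (a subunit of cytochrome c oxidase), *CYC1* and *CYC7* (cytochrome c), *PET9*, *AAC1* and *AAC3* (mitochondrial ADP/ATP carriers) and *ROX1*. They are 10 of the 7122 genes in the count table, and all 10 had enough counts to be tested.

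RNA was sequenced from exponentially growing cells of 7 strains, with 3 libraries each, in a study of 2 regulators of lipid synthesis. Ino4 is a subunit of the activator of phospholipid genes, and Mga2 is a membrane-anchored activator that raises transcription of *OLE1*, the fatty acid desaturase gene. The replicate labels only number the libraries, so p-values measure the spread between these libraries, which may be technical. The *ino4Δ mga2ΔTM* strain was *ino4Δ* with a pRS316 plasmid for Mga2 without its transmembrane segment (mga2ΔTM), and it also has the chromosomal *MGA2* gene. The *mga2ΔTM* strain was *mga2Δ* with the same plasmid, the *MGA2* strain was *mga2Δ* with a full-length *MGA2* plasmid, and the *OLE1* strain was wild-type with an *OLE1* plasmid. The plasmid genes were fused to mCherry and driven by the strong *GPD* promoter, so their levels are not those of the chromosomal genes, and these 4 strains grew in medium without uracil (SDC-URA). The *ino4Δ*, *mga2Δ* and wild-type (BY4741) strains carried no plasmid and grew in complete medium (SDC+All). No strain with an empty plasmid is among the 7, so in any comparison of a plasmid strain with a strain that has none, the plasmid gene, the plasmid itself and the medium cannot be told apart.

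In aerobic yeast, heme activates transcription factors such as Hap1 and the Hap2/3/4/5 complex, which drive respiratory genes, and Hap1 also activates *ROX1*. Rox1 is an HMG-box protein that binds upstream of hypoxic genes and represses them with Tup1 and Cyc8. When oxygen or heme falls, Rox1 is lost and genes such as *ANB1*, *COX5B* and *AAC3* are derepressed. BY4741 descends from S288C, whose *HAP1* gene carries a Ty1 insertion that weakens its product. Ole1 itself needs oxygen to make double bonds, and both *OLE1* and Mga2 belong to the response to low oxygen.

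*ANB1* carries the upstream sequence to which Rox1 binding is best known. The stretch below is from 325 to 176 bases before its start codon (RefSeq R64, chrX:525557-525706, minus strand), and capitals mark ATTGTT, the core of the Rox1 motif.
ANB1: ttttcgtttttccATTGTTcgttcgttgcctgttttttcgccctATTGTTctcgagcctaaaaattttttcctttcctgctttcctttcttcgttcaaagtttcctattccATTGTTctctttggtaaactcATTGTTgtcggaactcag
Within 500 bases upstream of the start codon and on both strands, *ANB1* had 4 matches to ATTGTT, and 2 of these were part of the longer ATTGTTCTC. ATTGTT was present in 48.9% of 6000 upstream windows of the same length and ATTGTTCTC in 1.13%. *COX5B* had 3 matches to ATTGTT, *ROX1* had 2, and *AAC3* and *COX5A* had 1 each.

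The matches of the other genes are shown with 12 bases on each side, on the strand that reads ATTGTT, to set their surroundings beside those in *ANB1*. They lie 375, 224 and 81 bases before the start codon of *COX5B* (chrIX:154835-154864, minus strand, chrIX:154986-155015, plus strand, and chrIX:155129-155158, minus strand). The *AAC3* match lies 194 bases before the start codon (chrII:415777-415806, plus strand), those of *ROX1* 464 and 393 bases (chrXVI:679217-679246, minus strand, and chrXVI:679288-679317, plus strand), and that of *COX5A* 95 bases (chrXIV:531618-531647, minus strand).
COX5B at 375: acggaccgatgaATTGTTttaccaaaatgg
COX5B at 224: ttttgattttgtATTGTTcgataaggcaac
COX5B at 81: aataattggtctATTGTTtaatgcaacagt
AAC3 at 194: tttttctttttcATTGTTtggttgccttca
ROX1 at 464: accagatttccaATTGTTttgcatagtaat
ROX1 at 393: agaaaagggcctATTGTTgctgcctctttt
COX5A at 95: cttatttaattgATTGTTctttttaacttt
*HYP2*, *CYC1*, *CYC7*, *PET9* and *AAC1* had no ATTGTT in this window. CCAAT, the core bound by Hap2/3/4/5, was found in 8 of the 10 windows, those of *ANB1* and *CYC1* being without it, and in 62.4% of all windows. In *ROX1* a CCAAT overlapped the ATTGTT at 464. ACTCAACAA, a form of the low oxygen response element, and the Hap1 motif (CGG, NNN and TANCGG in 1 run) were in none of the 10 windows, and in 0.383% and 0.35% of all windows. A match is a run of letters and not a measured binding site.

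**Figure D1:**
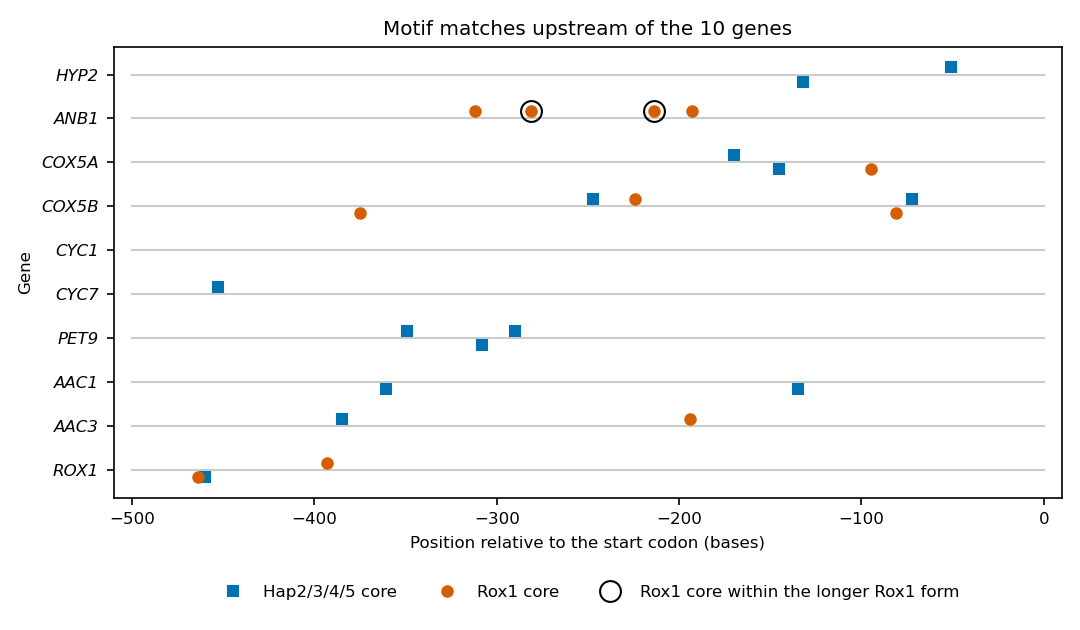
Positions of motif matches (x axis, bases relative to the start codon) upstream of each of the 10 genes (y axis), with matches on the coding strand drawn above the line and matches on the other strand below it. *ANB1* has 4 Rox1 cores on the coding strand, and circles mark the 2 that belong to the longer form.

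Isoforms of a pair are alike in sequence, so it matters whether reads of 50 bases can tell them apart. *ANB1* and *HYP2* are the most alike, with 90.9% identity over their coding sequences, followed by *AAC3* and *PET9* (76.5%), *CYC7* and *CYC1* (74.9%), *AAC1* and *PET9* (69.2%), *AAC1* and *AAC3* (67.5%) and *COX5B* and *COX5A* (65.5%). The lines below give the stretches of 50 bases in which *ANB1* and *HYP2* are most alike (bases 30 to 79 of the coding sequence) and least alike (bases 281 to 330). Capitals mark the bases that differ.
ANB1, bases 30 to 79 (chrX:525303-525352, minus strand): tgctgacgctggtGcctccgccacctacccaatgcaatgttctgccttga
HYP2, bases 30 to 79 (chrV:85705-85754, plus strand): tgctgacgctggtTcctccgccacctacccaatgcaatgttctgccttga
ANB1, bases 281 to 330 (chrX:525052-525101, minus strand): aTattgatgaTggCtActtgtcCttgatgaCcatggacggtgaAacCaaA
HYP2, bases 281 to 330 (chrV:85956-86005, plus strand): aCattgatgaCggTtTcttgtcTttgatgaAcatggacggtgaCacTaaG
No stretch of 50 bases of any of the 10 genes occurred elsewhere in the genome exactly. Of the 425 stretches of *ANB1*, 24 differed from *HYP2* by 1 base and 80 by at most 2 bases. *HYP2* had between 25.7 and 198 times the counts of *ANB1* in the same library, and how the counting treated reads that are close to both genes is not given in the sources used here. The low counts of *ANB1* are therefore uncertain to that extent.

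Libraries held between 12552418 and 18372240 counts. The strain labels were checked by the genes they name, in counts per library: *MGA2* had 7 to 10 in *mga2Δ* and 2374 to 3107 in wild-type, *INO4* had 10 to 13 in *ino4Δ mga2ΔTM*, 18 to 29 in *ino4Δ* and 140 to 181 in wild-type, and *OLE1* had 119214 to 135107 in the *OLE1* strain and 7388 to 13272 in wild-type. *URA3*, the plasmid marker, had at least 2704 counts in each library of the 4 plasmid strains and at most 1 in the others. Levels below are counts scaled to library size after TMM (CPM), an adjustment that sets the bulk of genes level between libraries. Levels of different genes are compared as RPKM, which is CPM divided by the coding length in kilobases. These are levels in whole cultures, where a lower level in all cells and a loss from some cells cannot be told apart.

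*HYP2* was the most abundant of the 10 genes, at 3001 ± 115 RPKM in wild-type (SD, n = 3), and *ANB1* had 22.9 ± 2.27 RPKM there. In wild-type, *PET9* was at 400 ± 7.63 RPKM, *CYC1* at 127 ± 13.5, *COX5A* at 123 ± 11.5 and *COX5B* at 118 ± 16.2. *ROX1* was at 40.9 ± 7.33 RPKM, *AAC1* at 8.33 ± 1.75, *AAC3* at 6.78 ± 1.07 and *CYC7* at 6.43 ± 3.47. The aerobic isoform was thus far above the hypoxic one in 3 of the sets, and *COX5A* and *COX5B* differed by less than their spread. By edgeR's quasi-likelihood F test over the 7 strains, 9 of the 10 genes differed among strains at an adjusted p below 0.05, as did 76.9% of all 6164 tested genes. *ROX1* was the exception (adjusted p = 0.132). The ratio of the highest to the lowest strain mean was 7.53 for *CYC7*, 4.53 for *ANB1* and 3.83 for *CYC1*, and between 1.36 and 2.06 for the other 7.

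**Figure D2:**
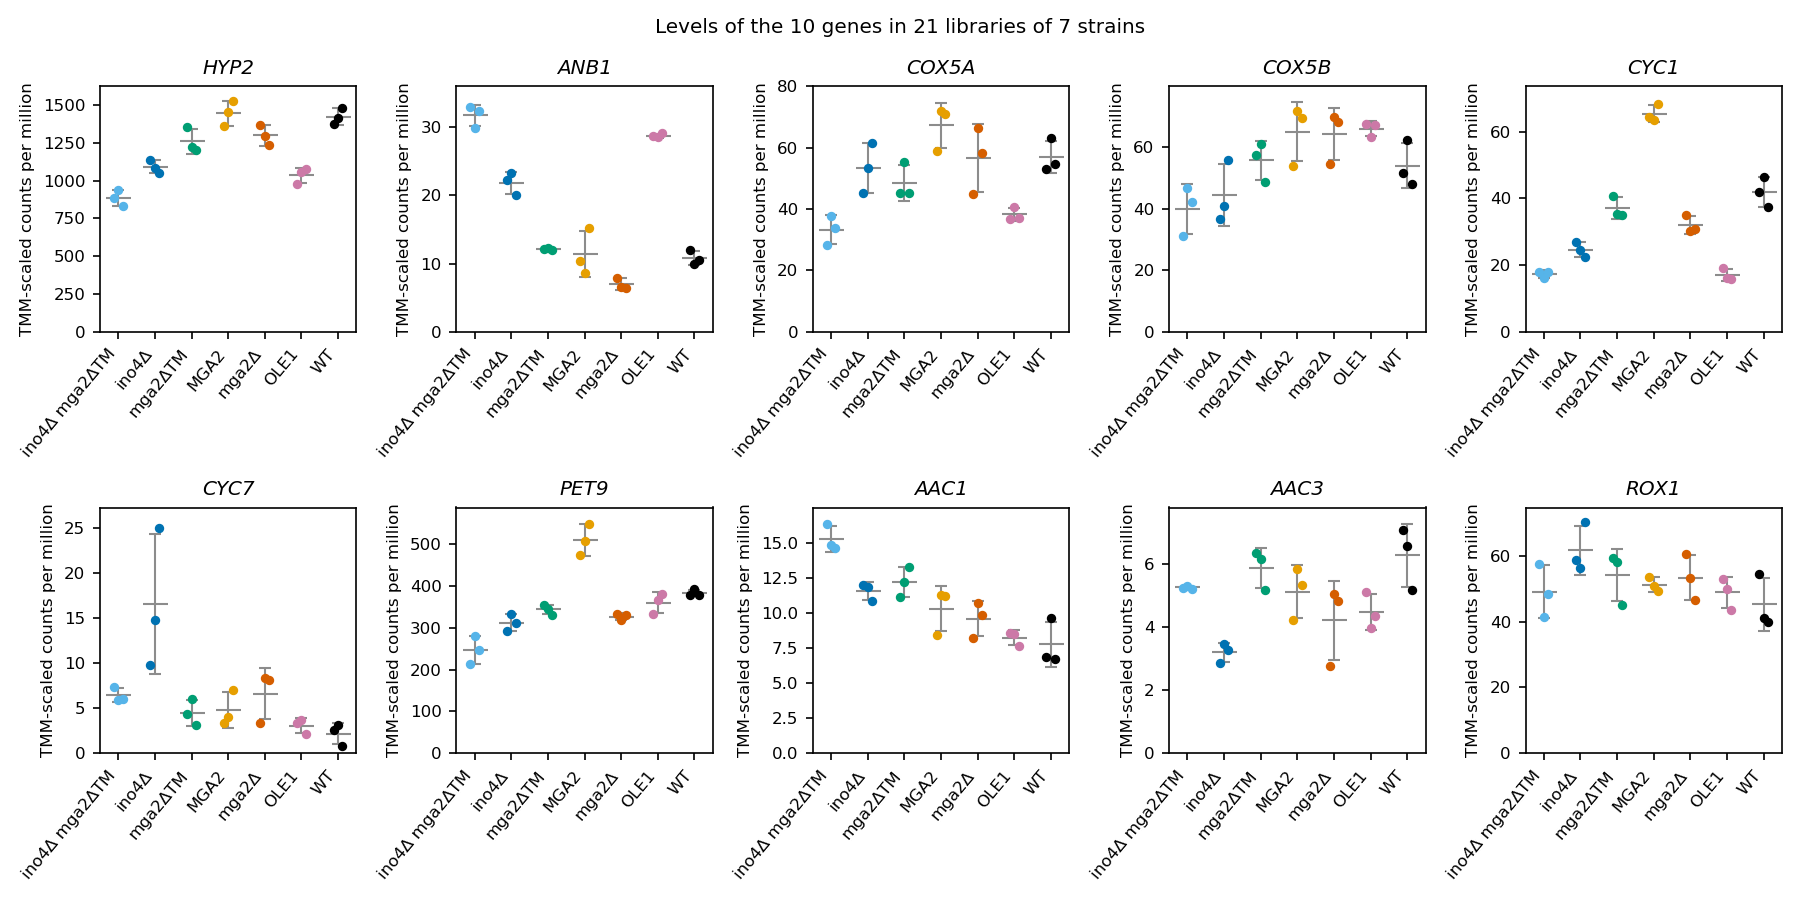
Each panel plots the level of a gene in CPM (y axis, from 0) in the 7 strains (x axis), with a point per library and the mean ± SD of 3 libraries in grey. *ANB1* is highest in *ino4Δ mga2ΔTM* and *OLE1*, *CYC1* is highest in *MGA2* and lowest in *OLE1* and *ino4Δ mga2ΔTM*, and *CYC7* is highest and most spread in *ino4Δ*.

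A gene was called changed at a fold above 1.5 and an adjusted p below 0.05 (edgeR, Benjamini-Hochberg over 6164 genes). Against wild-type, 7 of the 10 genes were called in *ino4Δ mga2ΔTM*, where 27.2% of all genes were called, and 4 in *ino4Δ*, where 29.3% were. In *mga2Δ* 2 genes were called (all genes 11.9%), in *OLE1* 2 (7.07%), in *mga2ΔTM* 1 (7.95%) and in *MGA2* 1 (3.97%). Between strains, 3 genes were called in *ino4Δ mga2ΔTM* against *ino4Δ* (9.46%), 3 in *MGA2* against *mga2Δ* (8.87%), 1 in *mga2ΔTM* against *mga2Δ* (12.9%), 1 in *mga2ΔTM* against *MGA2* (3.41%) and 2 in *mga2ΔTM* against *OLE1* (5.09%). The difference between the effects of the mga2ΔTM plasmid in *mga2Δ* and in *ino4Δ* was called for 1 gene (3.29%). With library totals in place of TMM the count in *ino4Δ mga2ΔTM* was 4 of 10, where 30.1% of all genes were called, so none of these counts is read as a result about the 10 genes as a group. Over these 12 comparisons *CYC1* was called in 8, *ANB1* in 7, *CYC7* in 4, and *COX5A*, *PET9*, *AAC1* and *AAC3* in 2 each. *HYP2* was called in 1, and *COX5B* and *ROX1* in none.

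Smaller changes were more frequent, both among the 10 genes and among all genes. At an adjusted p below 0.05 with no limit on the fold, 8 of the 10 passed against wild-type in *ino4Δ mga2ΔTM* (all genes 57.2%), 8 in *ino4Δ* (60%), 5 in *mga2Δ* (39.6%), 4 in *OLE1* (20.9%), 2 in *MGA2* (9.67%) and 1 in *mga2ΔTM* (24%). Between strains, 8 passed in *ino4Δ mga2ΔTM* against *ino4Δ* (28.7%), 3 in *MGA2* against *mga2Δ* (29.6%), 1 in *mga2ΔTM* against *mga2Δ* (33.9%), 3 in *mga2ΔTM* against *MGA2* (10%), 4 in *mga2ΔTM* against *OLE1* (13.2%) and 2 in the difference of plasmid effects (6.34%). The libraries of a strain did not overlap those of wild-type for 8 genes in *ino4Δ mga2ΔTM* (58.3% of all genes), 8 in *ino4Δ* (62.8%), 6 in *mga2Δ* (39.8%), 6 in *OLE1* (37%), 3 in *MGA2* (25%) and 3 in *mga2ΔTM* (38.6%). There was no overlap for 8 genes in *ino4Δ mga2ΔTM* against *ino4Δ* (42.7%), 3 in *MGA2* (37.3%) and 4 in *mga2ΔTM* (43%) against *mga2Δ*, and 4 and 7 in *mga2ΔTM* against *MGA2* (30.5%) and *OLE1* (36.1%). Lack of overlap was thus common in the whole table, and it is given below as a description of each gene.

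**Figure D3:**
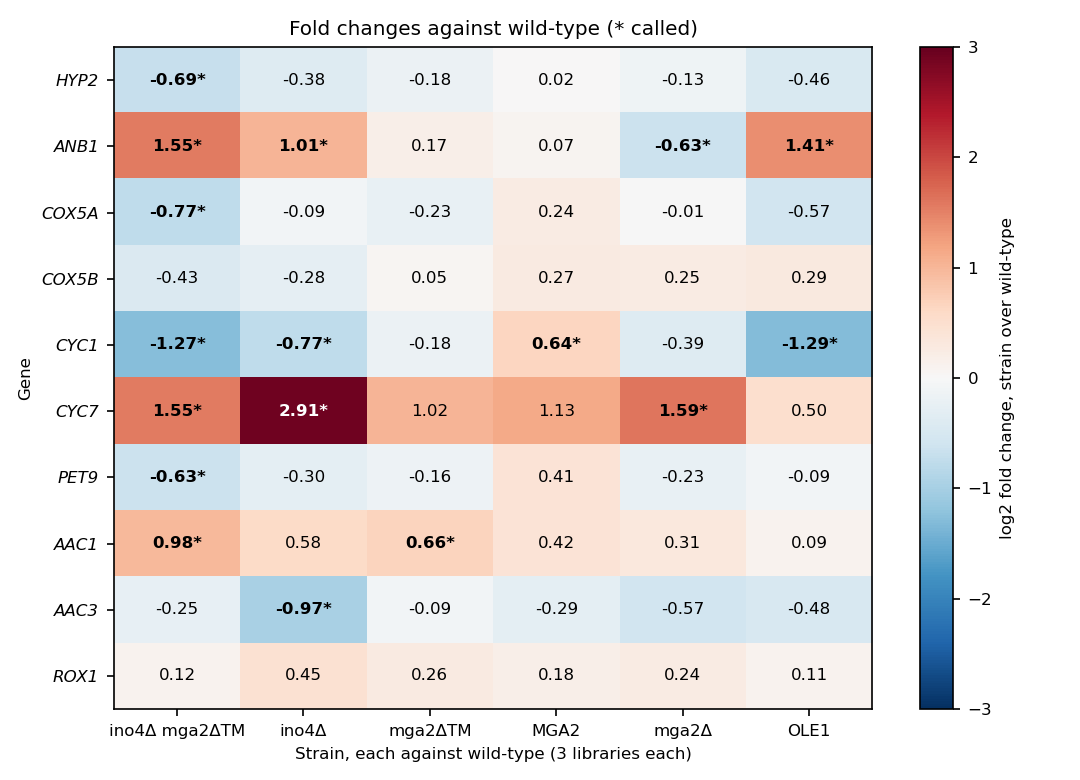
Log2 fold change of each gene (rows) in each of 6 strains (columns) over wild-type, from 3 libraries a strain, with red for higher, blue for lower and a star for genes called at a fold above 1.5 and an adjusted p below 0.05. *ANB1* is called in 4 strains, *CYC1* in 4 and *CYC7* in 3, while *ROX1* and *COX5B* have no star.

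*ANB1*, the hypoxic eIF5A, was higher in *ino4Δ mga2ΔTM*, *OLE1* and *ino4Δ* than in wild-type and lower in *mga2Δ*. eIF5A helps ribosomes through difficult peptide bonds and is essential. *ANB1* (YJR047C) is on chromosome X at 524908 to 525381, minus strand, and had 32.9, 29.9 and 32.3 CPM in *ino4Δ mga2ΔTM* and 28.6, 28.5 and 29.1 CPM in *OLE1*. It had 22.3, 23.2 and 20.1 CPM in *ino4Δ*, and 7.95, 6.55 and 6.48 CPM in *mga2Δ*, against 12.0, 9.91 and 10.6 CPM in wild-type. Each of these 4 strains lay wholly above or wholly below wild-type. The log2 fold change against wild-type was 1.55 ± 0.14 in *ino4Δ mga2ΔTM* (SE, adjusted p = 3.02e-08, edgeR), 1.41 ± 0.14 in *OLE1* (adjusted p = 7.19e-07), 1.01 ± 0.14 in *ino4Δ* (adjusted p = 6.29e-06) and −0.63 ± 0.15 in *mga2Δ* (adjusted p = 0.0032). All 3 increases were called under every alternative tried. The decrease in *mga2Δ* was close to the 1.5-fold limit: it was −0.56 without wild-type replicate 1 and −0.54 with library totals in place of TMM, and was then not called.

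The *mga2ΔTM* and *MGA2* strains had *ANB1* levels near those of wild-type. *mga2ΔTM* had 12.2, 12.3 and 12.0 CPM and *MGA2* had 10.4, 8.65 and 15.2 CPM, and both overlapped wild-type. Set against their own background *mga2Δ*, *ANB1* was higher by 0.80 ± 0.15 on the log2 scale in *mga2ΔTM* (adjusted p = 0.000462, edgeR) and by 0.70 ± 0.15 in *MGA2* (adjusted p = 0.0019). The *MGA2* value rested on replicate 3: without it the log2 fold change was 0.44, below the limit, and the call was also lost when the fit held only these 2 strains (adjusted p = 0.0674). In *ino4Δ mga2ΔTM* against *ino4Δ* the log2 fold change was 0.54 ± 0.13 (adjusted p = 0.0051), under the 1.5-fold limit, and the effect of the same plasmid in *mga2Δ* minus that in *ino4Δ* was 0.26 ± 0.20 (adjusted p = 0.48). In *mga2ΔTM* against *OLE1*, which share medium and plasmid type, *ANB1* was lower by 1.24 on the log2 scale (log2 fold change −1.24 ± 0.14, adjusted p = 2.92e-06). In the order of strain means, *ino4Δ mga2ΔTM* and *OLE1* did not differ past the threshold (adjusted p = 0.401), nor did *mga2ΔTM* and *MGA2* (adjusted p = 0.771) or *MGA2* and wild-type (adjusted p = 0.833). *OLE1* and *ino4Δ* differed by 0.40 on the log2 scale (adjusted p = 0.0184).

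*HYP2* (YEL034W, chromosome V at 85676 to 86149, plus strand), the aerobic eIF5A and by far the larger part of the pair, moved less. It had 882, 939 and 829 CPM in *ino4Δ mga2ΔTM* and 979, 1053 and 1075 CPM in *OLE1*, against 1375, 1411 and 1482 CPM in wild-type. *ino4Δ* had 1138, 1084 and 1050 CPM. None of these 3 strains overlapped wild-type, and only *ino4Δ mga2ΔTM* passed the fold limit, with a log2 fold change of −0.69 ± 0.07 (adjusted p = 1.63e-07, edgeR). That call was lost with library totals in place of TMM (−0.48). The values were −0.46 ± 0.07 in *OLE1* (adjusted p = 0.00014) and −0.38 ± 0.07 in *ino4Δ* (adjusted p = 0.000141). The table also lists the reading frame YEL034C-A, which overlaps *HYP2* on the other strand and had 16 to 131 counts a library, against 13793 to 22410 for *HYP2*. Whether the counting used strand is not given in the sources used here.

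Put together as a ratio within each library, which needs no scaling between libraries, *ANB1* took 3.48% ± 0.345 of the counts per base of the pair in *ino4Δ mga2ΔTM*, 2.70% ± 0.119 in *OLE1* and 1.96% ± 0.118 in *ino4Δ*. In *mga2ΔTM* it was 0.959% ± 0.0570, in *MGA2* 0.779% ± 0.198, in *mga2Δ* 0.535% ± 0.0386 and in wild-type 0.757% ± 0.0943 (SD, n = 3 each). *HYP2* thus held nearly all of the pair in each strain. The log2 ratio of *ANB1* to *HYP2* differed from that of wild-type by 2.24 ± 0.13 in *ino4Δ mga2ΔTM*, 1.87 ± 0.11 in *OLE1* and 1.40 ± 0.11 in *ino4Δ* (SE). It differed by 0.35 ± 0.11 in *mga2ΔTM* and by −0.50 ± 0.12 in *mga2Δ*, and none of these 5 strains overlapped wild-type. With 3 libraries against 3 the two-sided exact permutation test cannot go below p = 0.1, which was its value for each of the 5.

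*CYC1*, which encodes iso-1-cytochrome c, the main electron carrier between the bc1 complex and cytochrome c oxidase, was lower in *OLE1*, *ino4Δ mga2ΔTM* and *ino4Δ* than in wild-type and higher in *MGA2*. It lies on chromosome X at 526335 to 526664, plus strand (YJR048W), 953 bases from *ANB1* and transcribed away from it. It had 19.2, 16.1 and 15.96 CPM in *OLE1*, 17.9, 16.1 and 17.97 CPM in *ino4Δ mga2ΔTM* and 27.0, 24.6 and 22.3 CPM in *ino4Δ*. *MGA2* had 64.4, 63.6 and 68.2 CPM, against 42.0, 46.4 and 37.5 CPM in wild-type. None of these 4 strains overlapped wild-type, and *MGA2* lay above all other libraries. Against wild-type it changed by −1.29 ± 0.10 on the log2 scale in *OLE1* (adjusted p = 3.37e-08, edgeR), −1.27 ± 0.10 in *ino4Δ mga2ΔTM* (adjusted p = 6.29e-09), −0.77 ± 0.10 in *ino4Δ* (adjusted p = 2.58e-06) and 0.64 ± 0.10 in *MGA2* (adjusted p = 0.000261). With library totals in place of TMM the *ino4Δ* value was −0.55 and under the fold limit, and without wild-type replicate 3 the *MGA2* value was 0.56 and under it too. The value in *mga2Δ* was −0.39 ± 0.10 (adjusted p = 0.00417), past the p threshold but not the fold limit, and in *mga2ΔTM* it was −0.18 ± 0.10 (adjusted p = 0.206).

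*CYC1* also separated the plasmid strains from each other. *mga2ΔTM*, at 40.8, 35.3 and 35.0 CPM, was lower than *MGA2* (log2 fold change −0.82 ± 0.10, adjusted p = 1.59e-05, edgeR) and higher than *OLE1* (1.12 ± 0.10, adjusted p = 2.1e-07). These 3 strains grew in the same medium with the same kind of plasmid. Against *mga2Δ*, which had 35.0, 30.1 and 30.7 CPM, *MGA2* was higher by 1.03 ± 0.10 on the log2 scale (adjusted p = 3.09e-07) and *mga2ΔTM* by 0.22 ± 0.10 (adjusted p = 0.099). The same mga2ΔTM plasmid in *ino4Δ* gave −0.51 ± 0.10 (adjusted p = 0.00108). The difference between its effect in *mga2Δ* and that in *ino4Δ* was 0.72 ± 0.14 (adjusted p = 0.00503), the only such difference called among the 10 genes.

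**Figure D4:**
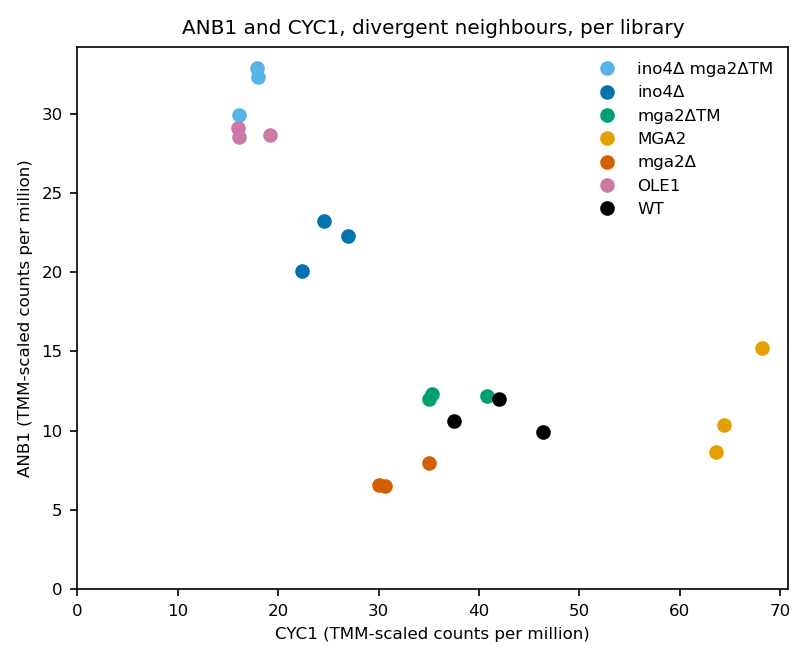
*ANB1* (y axis) against its divergent neighbour *CYC1* (x axis), both in CPM, with a point for each of the 21 libraries coloured by strain. The *ino4Δ mga2ΔTM* and *OLE1* libraries sit together at high *ANB1* and low *CYC1*, the *MGA2* libraries at high *CYC1* with *ANB1* near wild-type, and the *mga2Δ* libraries at low *ANB1* with *CYC1* a little under wild-type.

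In the plot of *ANB1* against *CYC1*, the neighbours moved in opposite directions from wild-type in *ino4Δ mga2ΔTM*, *OLE1* and *ino4Δ*, with *ANB1* higher and *CYC1* lower. Over 21 libraries their log2 CPM correlated at r = −0.74, but libraries of a strain share that strain's genotype, medium and plasmid. In *mga2Δ* both were under their wild-type values, by log2 fold changes of −0.63 for *ANB1*, near the fold limit, and −0.39 for *CYC1*, under it. In *MGA2* *CYC1* was above wild-type while *ANB1* overlapped it. Whether the neighbours affect each other was not tested.

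*CYC7* (YEL039C, chromosome V at 79636 to 79977, minus strand) encodes iso-2-cytochrome c, the minor form that is known to be favoured in low oxygen and under stress. It was the gene with the widest range and the lowest single count, with 13 to 465 counts a library. It had 9.82, 14.8 and 25.0 CPM in *ino4Δ*, 7.36, 5.96 and 6.08 CPM in *ino4Δ mga2ΔTM* and 3.39, 8.35 and 8.15 CPM in *mga2Δ*, against 2.63, 3.11 and 0.860 CPM in wild-type. These 3 strains lay above wild-type in each library, and the third wild-type library was low and the third *ino4Δ* library high within their groups. Fitted log2 fold changes against wild-type were 2.91 ± 0.44 in *ino4Δ* (adjusted p = 2.12e-05, edgeR), 1.55 ± 0.46 in *ino4Δ mga2ΔTM* (adjusted p = 0.00819) and 1.59 ± 0.46 in *mga2Δ* (adjusted p = 0.0118). In *ino4Δ* and *ino4Δ mga2ΔTM* the call held under every alternative. In *mga2Δ* it was lost without wild-type replicate 3 (1.21, adjusted p = 0.0702), without *mga2Δ* replicate 2 (adjusted p = 0.0538) or replicate 3 (adjusted p = 0.053), and when only these 2 strains were fitted (adjusted p = 0.0659).

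The other strains had *CYC7* at 3.36, 4.02 and 7.03 CPM (*MGA2*), 4.32, 5.99 and 3.11 CPM (*mga2ΔTM*) and 3.42, 3.70 and 2.14 CPM (*OLE1*), with adjusted p-values of 0.168, 0.142 and 0.545 against wild-type. Within the *ino4Δ* background the mga2ΔTM plasmid strain was lower, with a log2 fold change of −1.36 ± 0.38 (adjusted p = 0.0132, edgeR). That call rested on *ino4Δ* replicate 3: without it the value was −0.91 (adjusted p = 0.108). Of the 6 neighbours in the order of strain means, only *ino4Δ* and *mga2Δ* differed past the threshold (1.32 on the log2 scale, adjusted p = 0.0115).

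*CYC7* took 38.2% ± 13.04 of the counts per base of the cytochrome c pair in *ino4Δ*, 26.4% ± 1.89 in *ino4Δ mga2ΔTM* and 16.7% ± 7.06 in *mga2Δ*. It took 14.8% ± 3.34 in *OLE1*, 10.4% ± 3.24 in *mga2ΔTM* and 6.53% ± 2.24 in *MGA2*, against 4.65% ± 2.16 in wild-type (SD, n = 3 each). In *OLE1* it was *CYC1* that passed the test and not *CYC7*. The log2 ratio of *CYC7* to *CYC1* differed from wild-type by 3.75 ± 0.68 in *ino4Δ*, 3.00 ± 0.49 in *ino4Δ mga2ΔTM*, 2.05 ± 0.69 in *mga2Δ*, 1.93 ± 0.54 in *OLE1* and 1.33 ± 0.56 in *mga2ΔTM* (SE), each without overlap and each at the smallest exact permutation p of 0.1. In *MGA2* it overlapped wild-type (0.59 ± 0.57, exact p = 0.5).

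**Figure D5:**
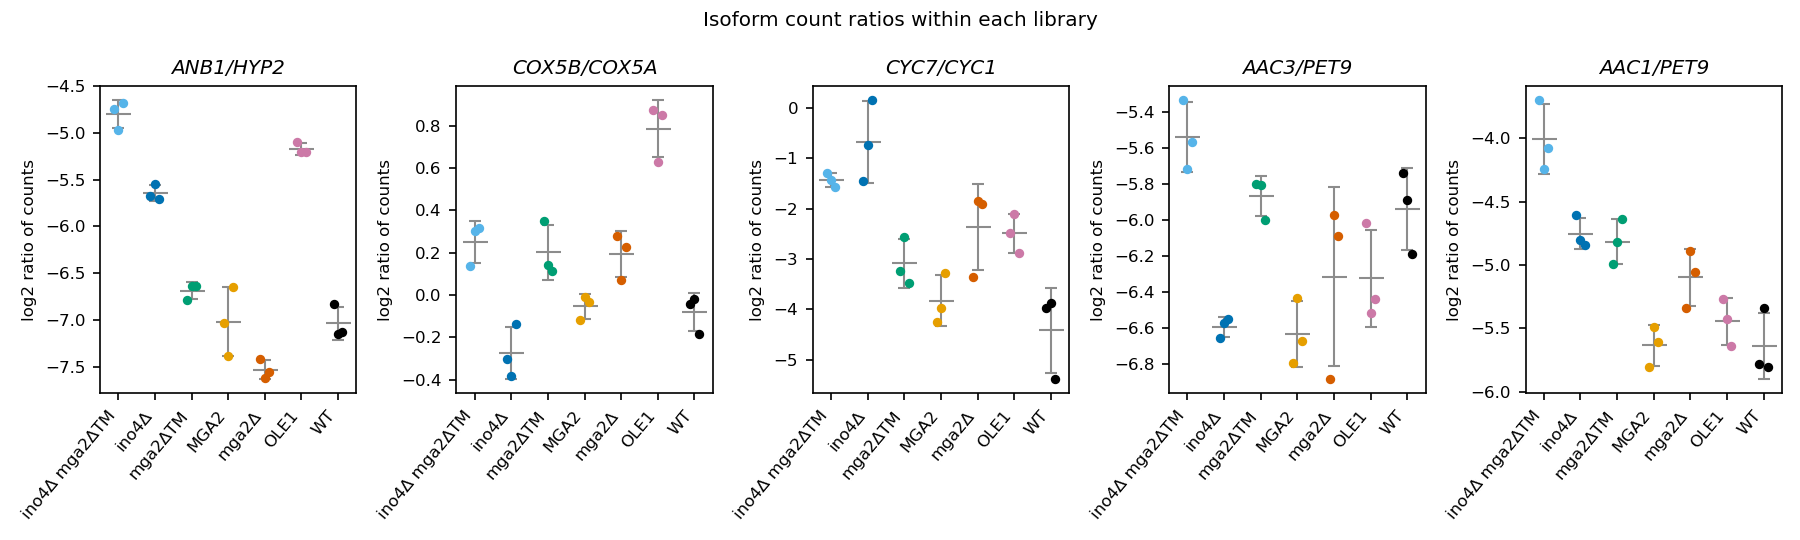
Log2 ratio of counts of the isoform named first to the other in each library (y axis) for the 5 isoform ratios, by strain (x axis), with a point per library and the mean ± SD of 3 libraries in grey. *ANB1*/*HYP2* is raised in *ino4Δ mga2ΔTM*, *ino4Δ* and *OLE1*, *COX5B*/*COX5A* is highest in *OLE1*, and *CYC7*/*CYC1* is highest in *ino4Δ*.

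*COX5A* (YNL052W, chromosome XIV at 531725 to 532186, plus strand) and *COX5B* (YIL111W, chromosome IX at 155222 to 155765, plus strand, with an intron of 88 bases) encode alternative forms of subunit V, which set how fast cytochrome c oxidase turns over. *COX5A* had 28.3, 37.8 and 34.0 CPM in *ino4Δ mga2ΔTM*, against 53.2, 63.0 and 54.6 CPM in wild-type, with no overlap. The log2 fold change was −0.77 ± 0.14 (adjusted p = 0.000165, edgeR), and with library totals in place of TMM it was −0.56 and under the fold limit. Against *ino4Δ*, which had 45.3, 53.3 and 61.5 CPM, the change was −0.68 ± 0.14 (adjusted p = 0.00172). It was under the fold limit without *ino4Δ mga2ΔTM* replicate 1 (−0.56) or *ino4Δ* replicate 3 (−0.54). In *OLE1*, at 36.9, 40.8 and 37.2 CPM, the value against wild-type was −0.57 ± 0.14 (adjusted p = 0.00796), just under the 1.5-fold limit, and without wild-type replicate 1 it was −0.63 and called, as it was under 3 other alternatives (DESeq2, −0.59, without wild-type replicate 3, −0.61, and without *OLE1* replicate 2, −0.63).

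*COX5B* was not called in any comparison. It had 67.7, 63.2 and 67.2 CPM in *OLE1* and 31.1, 46.6 and 42.2 CPM in *ino4Δ mga2ΔTM*, against 51.7, 62.3 and 48.1 CPM in wild-type. *OLE1* lay above wild-type in each library and *ino4Δ mga2ΔTM* below it in each, with log2 fold changes of 0.29 ± 0.16 (adjusted p = 0.24, edgeR) and −0.43 ± 0.17 (adjusted p = 0.0342). The share of *COX5B* in the counts per base of the pair was 63.6% ± 2.19 in *OLE1*, 54.7% ± 1.71 in *ino4Δ mga2ΔTM* and 45.6% ± 2.13 in *ino4Δ*, against 48.9% ± 1.53 in wild-type (SD, n = 3 each). The *OLE1* value was the highest of the 7 strains and did not overlap any other. The log2 ratio of *COX5B* to *COX5A* differed from wild-type by 0.87 ± 0.09 in *OLE1* (SE, exact permutation p = 0.1, the smallest possible). The differences were 0.33 ± 0.08 in *ino4Δ mga2ΔTM*, 0.28 ± 0.09 in *mga2ΔTM* and 0.27 ± 0.08 in *mga2Δ*, also without overlap. *ino4Δ* (−0.19 ± 0.09, exact p = 0.2) and *MGA2* (0.03 ± 0.06, exact p = 0.6) overlapped wild-type.

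The ADP/ATP carriers exchange ATP made in mitochondria for cytosolic ADP. *PET9* (YBL030C, chromosome II at 163041 to 163997, minus strand), also called AAC2, is the main carrier, *AAC3* (YBR085W, chromosome II at 415983 to 416906, plus strand) is the anaerobic one, and *AAC1* (YMR056C, chromosome XIII at 387315 to 388244, minus strand) is a minor carrier of aerobic cells. *PET9* had 212, 281 and 247 CPM in *ino4Δ mga2ΔTM* and 473, 507 and 548 CPM in *MGA2*, against 379, 392 and 379 CPM in wild-type. *MGA2* lay above and *ino4Δ mga2ΔTM* below wild-type in each library. Its log2 fold change was −0.63 ± 0.08 in *ino4Δ mga2ΔTM* (adjusted p = 3.72e-06, edgeR), which fell under the fold limit with library totals (−0.42) and without its replicate 1 (−0.54). In *MGA2* it was 0.41 ± 0.08 against wild-type (adjusted p = 0.00346), under the fold limit, and 0.64 ± 0.08 against *mga2Δ* (adjusted p = 1.61e-05). *mga2Δ* had 332, 318 and 330 CPM, and without *MGA2* replicate 3 that change was 0.58 and just under the limit.

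*AAC1* was higher in *ino4Δ mga2ΔTM*, with 16.3, 14.8 and 14.6 CPM, and in *mga2ΔTM*, with 11.1, 12.2 and 13.3 CPM, against 6.88, 9.62 and 6.75 CPM in wild-type. Both lay above wild-type in each library. *AAC1* had a log2 fold change of 0.98 ± 0.14 in *ino4Δ mga2ΔTM* (adjusted p = 9.98e-06, edgeR), called under every alternative, and 0.66 ± 0.14 in *mga2ΔTM* (adjusted p = 0.00261). The *mga2ΔTM* call was lost without wild-type replicate 1 (0.56) or replicate 3 (0.55) or *mga2ΔTM* replicate 3 (0.57). In *ino4Δ*, at 12.0, 11.9 and 10.8 CPM, the value of 0.58 ± 0.14 (adjusted p = 0.00197) missed the fold limit, and 6 alternatives of scaling, filter, test or libraries put it past that limit, among them limma-voom (0.60).

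*AAC3*, the anaerobic carrier, went the other way from *ANB1* in *ino4Δ*. It had 2.86, 3.45 and 3.28 CPM there, against 7.07, 6.58 and 5.16 CPM in wild-type, with no overlap. The log2 fold change was −0.97 ± 0.19 (adjusted p = 0.000306, edgeR), and it was called under every alternative. In *ino4Δ mga2ΔTM* the level was 5.25, 5.31 and 5.21 CPM, higher than in *ino4Δ* by 0.71 ± 0.19 on the log2 scale (adjusted p = 0.0102) and with a value of −0.25 ± 0.19 against wild-type (adjusted p = 0.253). *OLE1* had 5.11, 3.98 and 4.35 CPM (log2 fold change −0.48 ± 0.19, adjusted p = 0.0819). In *mga2Δ*, at 2.77, 5.04 and 4.82 CPM, the value was −0.57 ± 0.19 (adjusted p = 0.0237), just under the fold limit and past it with DESeq2 (−0.59) and limma-voom (−0.60). *AAC3* had 45 to 113 counts a library, so its values are less precise than those of *PET9*.

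Within each library, the log2 ratio of *AAC3* to *PET9* differed from wild-type by −0.66 ± 0.14 in *ino4Δ*, −0.70 ± 0.17 in *MGA2* and 0.40 ± 0.17 in *ino4Δ mga2ΔTM* (SE), without overlap. In *ino4Δ mga2ΔTM* it was *PET9* that passed the test and not *AAC3*. The ratio of *AAC1* to *PET9* was higher than in wild-type by 1.63 ± 0.22 on the log2 scale in *ino4Δ mga2ΔTM*, 0.89 ± 0.17 in *ino4Δ*, 0.83 ± 0.18 in *mga2ΔTM* and 0.55 ± 0.20 in *mga2Δ*. Each of these 7 differences was at the smallest exact permutation p of 0.1. Of all 55 differences in isoform ratio computed over the 5 ratios and 11 comparisons, 36 were without overlap between the libraries. Levels of single genes lacked overlap for 25% to 62.8% of all genes in these comparisons, and ratios of other gene pairs were not computed. The comparisons share strains, and *AAC1* and *AAC3* share *PET9*, so the count is only a description. None of the exact permutation tests can go below p = 0.1, so none passes a threshold of 0.05 before or after adjustment.

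*ROX1* itself (YPR065W, chromosome XVI at 679693 to 680799, plus strand) was not called in any of the 12 comparisons. Its highest strain mean was in *ino4Δ*, with 58.7, 56.2 and 70.1 CPM, against 54.6, 41.2 and 40.0 CPM in wild-type. The log2 fold change was 0.45 ± 0.14 (adjusted p = 0.0115, edgeR), past the p threshold and under the fold limit. It became a call without wild-type replicate 1 (0.59) and with library totals (0.67), both upward. In the other strains the value against wild-type lay between 0.11 and 0.26, with adjusted p-values of at least 0.195, and all 6 neighbours in the order of strain means overlapped. The mRNA says nothing of the amount or activity of the Rox1 protein.

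The hypoxic isoforms did not move as a group. In *ino4Δ*, *ANB1* and *CYC7* rose, *AAC3* fell and *COX5B* had a log2 fold change of −0.28. In *OLE1*, *ANB1* rose, and *COX5B*, *CYC7* and *AAC3* had values of 0.29, 0.50 and −0.48 and did not pass. In *mga2Δ*, *CYC7* rose and *ANB1* fell. Over the 10 genes the median log2 fold change against wild-type was −0.34 in *ino4Δ mga2ΔTM*, −0.18 in *ino4Δ*, −0.07 in *mga2Δ*, −0.02 in *mga2ΔTM*, 0.0025 in *OLE1* and 0.26 in *MGA2*, where the medians over all tested genes lay between −0.01 and 0.03.

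Of 7 other genes known to be repressed by Rox1, 1 was higher in *ino4Δ* against wild-type, where 19.2% of all genes were higher, and 2 were higher and 1 lower in *ino4Δ mga2ΔTM*, where 17.9% were higher and 9.3% lower. Among them *OLE1* was called in the strains that carry an *OLE1* or *MGA2* plasmid, where it is engineered or a known target of Mga2, and it was lower in *mga2Δ* (−0.84). In *ino4Δ*, only *SUT1*, a regulator of sterol uptake, was called (log2 fold change 1.59 ± 0.30, adjusted p = 0.00021, edgeR), and in *ino4Δ mga2ΔTM* *SUT1* rose by 1.11 ± 0.30 and *ERG11*, a sterol demethylase, fell by 0.62. *HEM13*, the oxygen-dependent heme synthesis enzyme that is a textbook Rox1 target, was called only in *ino4Δ mga2ΔTM* against *ino4Δ* (0.66 ± 0.13, adjusted p = 0.00089) and in the difference of plasmid effects (−0.94 ± 0.18, adjusted p = 0.0046). *HMG2*, the hypoxic form of HMG-CoA reductase, was higher in *mga2ΔTM* than in wild-type by 0.62 ± 0.07 (adjusted p = 5.7e-06). Among 14 regulators of the oxygen and heme response, *UPC2*, an activator of anaerobic genes, rose in *ino4Δ mga2ΔTM* (0.89 ± 0.09, adjusted p = 8.8e-08), and the only other calls against wild-type were *SUT1* and the engineered *MGA2*, which was also lower in *OLE1* (−0.99 ± 0.11).

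Anaerobic cell wall mannoproteins and sterol importers, which are induced without oxygen largely apart from Rox1, are given beside *ANB1*. Of 10 such genes 8 were higher in *OLE1* against wild-type, 8 were higher and 1 lower in *ino4Δ mga2ΔTM*, and 6 were higher in *ino4Δ*, while 4 were higher and 1 lower in *mga2ΔTM*, 2 higher in *MGA2* and 1 higher in *mga2Δ*. Among all tested genes, 6.08%, 17.9%, 19.2%, 6.49%, 3.42% and 9.52% were higher in these strains, in that order. The shares lower were 9.3% in *ino4Δ mga2ΔTM* and 1.46% in *mga2ΔTM*. The median log2 fold change over the list was 1.21 in *OLE1*, 1.44 in *ino4Δ mga2ΔTM* and 1.03 in *ino4Δ*, where all tested genes had medians of 0.01, 0.03 and 0.03. In *OLE1*, *DAN1* rose by 6.26 ± 0.41, *TIR1* by 4.07 ± 0.20 and *TIR3* by 1.41 ± 0.14 on the log2 scale. In *ino4Δ mga2ΔTM* *DAN1* rose by 5.15 ± 0.44, *DAN4* by 2.22 ± 0.23 and *TIR4* by 1.76 ± 0.19. *PDR11*, a sterol importer, rose by 0.90 ± 0.14 in *ino4Δ*. The other importer listed, *AUS1*, went the other way there, with a log2 fold change of −0.47 ± 0.08 (adjusted p = 5.15e-05, edgeR), under the fold limit. Some of these genes have near-identical relatives, and how reads shared between copies were counted is not given in the sources used here.

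Of 12 genes of the bc1 complex and of cytochrome c biogenesis and use, 5 were higher, none was lower and 7 were not called in *ino4Δ* against wild-type, where 19.2% of all genes were higher and 10.1% lower. Among the 5 were *CYB2*, which passes electrons from lactate to cytochrome c (1.94 ± 0.25), *CYC3*, which attaches heme to cytochrome c (0.64 ± 0.10), and *QCR8* (0.75 ± 0.13). In *ino4Δ mga2ΔTM* against *ino4Δ*, 7 of the 12 were lower (5.16% of all genes), among them *COR1* (−0.71 ± 0.07), *CYT1* (−0.82 ± 0.14) and *QCR8* (−0.70 ± 0.13), together with 3 of 7 other subunits of cytochrome c oxidase, *COX4* (−0.75 ± 0.11), *COX6* (−0.69 ± 0.11) and *COX8* (−0.69 ± 0.09). *COX5A* was lower in that comparison too. In *MGA2* against wild-type, where *CYC1* rose, 3 of the 12 and 2 of the 7 were higher (3.42% of all genes). Among these, *COX12* rose by 0.67 ± 0.08, *COX13* by 0.64 ± 0.06 and *CYT1* by 0.78 ± 0.14. *CYC1* did not go with these lists in every strain. It fell by 0.77 in *ino4Δ*, where 5 of the 12 were higher. It fell by 1.29 in *OLE1*, where none of the 12 or the 7 was called. Of 14 genes of ATP synthase and the phosphate carrier, which work with *PET9*, 2 were higher in *ino4Δ* and none was called in the other 5 strains against wild-type. In *MGA2*, 13 of the 14 were higher at an adjusted p below 0.05 but under the fold limit, and *TIM11* had a log2 fold change of 0.59 and an adjusted p of 0.0638 (edgeR). Of all genes, 9.67% passed that p threshold there, in either direction. The list median there was 0.40, that of all genes −0.01 and the value of *PET9* 0.41.

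Around *HYP2*, 7 of 7 genes of eIF5A modification and translation elongation were lower in *ino4Δ* and 6 of 7 in *ino4Δ mga2ΔTM*, with list medians of −0.74 and −0.77. Among all tested genes, 10.1% and 9.3% were lower in these strains, and the median was 0.03 in each. *DYS1*, the first enzyme of hypusine synthesis, which modifies eIF5A, fell by 0.79 on the log2 scale in *ino4Δ* and by 0.80 in *ino4Δ mga2ΔTM*. The pairs *TEF1* and *TEF2* and *EFT1* and *EFT2* on this list are near-identical copies and their separate counts are uncertain. *HYP2* was lower in both strains as well, past the fold limit only in *ino4Δ mga2ΔTM*. It did not go with this list in every strain. At an adjusted p below 0.05 alone, 6 of the 7 were lower in *mga2Δ* and 6 in *mga2ΔTM*. Of all genes, 39.6% and 24% passed there in either direction. *HYP2* did not pass in these strains (−0.13, adjusted p = 0.142, and −0.18, adjusted p = 0.0793, edgeR). In *OLE1* its value was −0.46 (adjusted p = 0.00014), and 1 of the 7 was lower (20.9% of all genes passed).

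*CYC7* is known to respond to glucose and to stress, so genes of both responses are given beside it. Against wild-type, 9 of 10 glucose-repressed genes were higher in *ino4Δ*, 9 in *ino4Δ mga2ΔTM*, 6 in *mga2Δ*, 2 in *OLE1*, 3 in *mga2ΔTM* and 2 in *MGA2*. Of 8 stress genes 7 were higher in *ino4Δ*, 6 in *ino4Δ mga2ΔTM*, 7 in *mga2Δ*, 3 in *OLE1*, 2 in *mga2ΔTM* and 3 in *MGA2*. Of all genes, 19.2%, 17.9%, 9.52%, 6.08%, 6.49% and 3.42% were higher in these 6 strains. *CYC7* was not called in the last 3. The summed levels of the stress genes were 5297 to 6446 CPM in *ino4Δ*, 3021 to 3494 CPM in *ino4Δ mga2ΔTM*, 3843 to 5662 CPM in *mga2Δ* and 2415 to 2761 CPM in *OLE1*, against 1122 to 1994 CPM in wild-type, and the part of this in the *CYC7* result was not tested. *HSP26*, a small heat shock protein gene, rose by 4.58 ± 0.19 on the log2 scale in *ino4Δ*, by 3.32 ± 0.18 in *mga2Δ* and by 2.34 ± 0.18 in *OLE1*. *PCK1*, a gluconeogenic enzyme gene, rose by 2.83 ± 0.19 in *ino4Δ* and by 0.91 ± 0.20 in *mga2Δ*.

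The genes whose levels followed each of the 10 most closely over the 21 libraries differed between isoforms of a set. By Pearson correlation of log2 CPM, *COX5A* was nearest to *COX6* (0.94), *QCR6* (0.92) and *MIC60* (0.91), while *COX5B* was nearest to *ORA1* (0.88), *CAJ1* (0.86) and *ERG6* (0.85). *PET9* was nearest to *ATP1* (0.93), *ATP2* (0.93) and *ATP20* (0.91), genes of ATP synthase, whereas *AAC1* was nearest to YMR181C (0.93), *MUK1* (0.92) and *SPO73* (0.92), and *AAC3* had no gene above 0.80. *CYC7* was nearest to *GUT2* (0.94), *GIP2* (0.93) and *CYB2* (0.93), and *CYC1* to *ATP25* (0.89), *CIR2* (0.88) and *TIF4632* (0.87). *ANB1* was nearest to *PDR15* (0.90), *CPA1* (0.89) and *PAU2* (0.89). *HYP2* was nearest to *MTC7* (0.99), which starts 29 bases after it on the same strand, then *YCK2* (0.92) and *PIL1* (0.89). The gap between *HYP2* and *MTC7* is shorter than a read, and how reads close to both were counted is not given in the sources used here. *ROX1* was nearest to *PIN4* (0.74), *IMH1* (0.74) and *ASF1* (0.73). Libraries of a strain share genotype, medium and plasmid, so these values describe shared differences between 7 strains more than 21 independent points.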

How the data were processed

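The authors depleted rRNA, sequenced single reads of 50 bases, aligned them with STAR 2.5.1b to R64-1-1 and deposited raw counts per gene from HTSeq 0.5.4p3. Their second table, of normalized values, was not used. Of 7126 lines 4 named no gene. All 21 libraries were fitted together in edgeR 4.0.16 under R 4.3.3 (TMM, robust quasi-likelihood, 1 mean per strain), after filterByExpr (minimum count 10, minimum total 15) kept 6164 of 7122 genes. The call limits were 1.5-fold and 0.05 for p-values adjusted by Benjamini and Hochberg's method. Isoform ratios used counts plus 0.5 and a two-sided exact permutation test (scipy 1.17.1). Coordinates and sequences are from RefSeq R64, where 6045 identifiers and all 10 genes matched. The calling step was checked on simulated data for *ino4Δ* against wild-type. It called 17 of 50 genes changed 1.5-fold, 46 of 50 changed 2-fold, 48 of 50 changed 3-fold and 50 of 50 changed 4-fold. Of the unchanged genes 4 were called, with 5982 genes tested. A gene that was not called can thus still have a change near the fold limit.

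The genes and gene lists were chosen with earlier results of these data known. The text names all 10 genes, the engineered genes and the 3 genes most correlated with each of the 10 (log2 CPM, prior count 2). Of each list it names some or all of the 3 called genes with the smallest adjusted p in a comparison described. *AUS1* and *TIM11* are also given though they were not called. Libraries were compared unpaired. Alternatives were limma-voom (limma 3.58.1), DESeq2 1.42.0, RLE factors, library totals, other count filters, a replicate block, fitting only the compared strains, no fold threshold, a ratio pseudocount of 1 and leaving out each library.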

Additional observations from a re-analysis of the deposited data

Results flagged for a closer look

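The effect of the mga2ΔTM plasmid on *CYC1* differed between the backgrounds: the log2 fold change of *mga2ΔTM* over *mga2Δ* minus that of *ino4Δ mga2ΔTM* over *ino4Δ* was 0.72 (edgeR adjusted p = 0.00503). The value lay between 0.63 and 0.78 under all 21 alternatives and was called in each. The plasmid strains had 40.8, 35.3 and 35.0 CPM against 35.0, 30.1 and 30.7 in *mga2Δ*, and 17.9, 16.1 and 17.97 against 27.0, 24.6 and 22.3 in *ino4Δ*, so that all 3 libraries were higher in the first case and all 3 lower in the second. The *ino4Δ* strains keep chromosomal *MGA2*, and in both cases the plasmid goes with the change of medium. 3.29% of all tested genes were called in this comparison.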

How the results depend on the processing

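None of the 28 called changes of these genes changed sign under any alternative run, and 20 uncalled ones, of at most 0.15 in size on the log2 scale, did under at least 1. With no fold threshold the count of genes called was 8 in *ino4Δ* against wild-type, 5 in *mga2Δ*, 4 in *OLE1*, 2 in *MGA2*, 8 in *ino4Δ mga2ΔTM* against *ino4Δ*, 3 in *mga2ΔTM* against *MGA2*, 4 in *mga2ΔTM* against *OLE1* and 2 in the difference of plasmid effects. With library totals it was 4 in *ino4Δ mga2ΔTM* and 1 in *mga2Δ* against wild-type; these totals moved the median of all genes to 0.23 in *ino4Δ mga2ΔTM*, 0.24 in *ino4Δ* and 0.10 in *mga2Δ*. Fitting only the compared strains gave 1 in *mga2Δ*. Leaving out each library gave 6 to 7 in *ino4Δ mga2ΔTM* against wild-type, 4 to 5 in *ino4Δ*, 1 to 2 in *mga2Δ*, 2 to 4 in *OLE1*, 0 to 1 in *MGA2* and 0 to 1 in *mga2ΔTM*. It gave 1 to 4 in *ino4Δ mga2ΔTM* against *ino4Δ*, 1 to 3 in *MGA2* and 1 to 2 in *mga2ΔTM* against *mga2Δ*, 1 to 2 in *mga2ΔTM* against *MGA2*, 2 to 3 against *OLE1*, 1 to 1 in the difference of plasmid effects, 9 to 10 genes differing among strains and 36 to 39 ratios without overlap. The cause of these moves was not tested. limma-voom, DESeq2, RLE factors and the count filters lost no call.

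Over all tested genes, libraries with the same replicate number deviated together little on average (mean r = 0.018 over 63 pairs, and −0.0098 over 126 pairs with different numbers). Deviations cancel within a strain, so these means are tied to each other. Single pairs ranged from −0.35 to 0.45 with the same number and from −0.54 to 0.47 with different numbers. The means do not describe every gene, and *COX5A* was lowest in replicate 1 in each strain. The numbers were not taken to pair the libraries. With the replicate number as a block, all 120 results of these genes stayed on the same side of the threshold, with 4 called in *ino4Δ* and 7 in *ino4Δ mga2ΔTM* against wild-type. *CYC7* and *AAC3* had the lowest counts of the 10 genes, down to 13 and 45 a library.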
